A study of Mus musculus with 6 samples.

Results

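The CC chemokine ligands described here are Ccl2, Ccl3, Ccl4, Ccl5, Ccl6, Ccl7, Ccl8, Ccl9, Ccl12 and Ccl24, which were selected by gene symbol and make up 10 of the 46603 genes in the table of counts. They were measured by RNA-Seq in CD11B+ cells that CD11B antibody beads had captured from the kidneys of 6 mice, 3 PTEC DN RAR and 3 Cre- controls, with 1 library per mouse. All 6 mice were males aged 10 to 12 weeks that underwent bilateral IRI-AKI, in which the pedicles of both kidneys were clamped for 28 minutes, and were studied on day 3. Both genotypes carried the Rosa26-LSL-RARaT403X allele, joined to PEPCK CRE+ in PTEC DN RAR mice and to PEPCK CRE- in the controls. All 6 mice therefore had the silent transgene for a truncated dominant-negative RARa, which blocks retinoic acid receptor signaling once Cre has removed its stop cassette. PEPCK-Cre recombines in proximal tubular epithelial cells (PTECs) and not by design in CD11B+ cells, and no uninjured mice were analysed here. The comparison asks whether ligand transcripts in the CD11B+ fraction differed when RAR signaling had been inhibited in the neighboring PTECs. Because whole fractions were sequenced, fewer cells of a type and less RNA per cell cannot be told apart.

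CC chemokines are small secreted proteins, named for a pair of adjacent cysteines near the start of the mature protein, that bind G protein-coupled receptors on leukocytes and direct their migration. Ccl2, Ccl7 and Ccl12 are ligands of Ccr2 and draw inflammatory monocytes out of the bone marrow and into injured tissue, including the postischemic kidney. Ccl3, Ccl4 and Ccl5 are inflammatory chemokines of macrophages and lymphocytes, and Ccl3 and Ccl5 act on Ccr1. Ccl6 and Ccl9 are rodent ligands of Ccr1, mouse Ccl8 is a ligand of Ccr8, and Ccl24 (eotaxin-2) attracts eosinophils through Ccr3.

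Of the 10 ligands, 9 lie in a pair of clusters on chromosome 11 and Ccl24 lies on chromosome 5 (GRCm38). The first cluster holds Ccl2 (ENSMUSG00000035385, 82035571 to 82037453), Ccl7 (ENSMUSG00000035373, 82045712 to 82047525), Ccl12 (ENSMUSG00000035352, 82101845 to 82103400) and Ccl8 (ENSMUSG00000009185, 82115185 to 82116799), all on the plus strand. The second cluster holds Ccl5 (ENSMUSG00000035042, 83525778 to 83530518), Ccl9 (ENSMUSG00000019122, 83572919 to 83578636), Ccl6 (ENSMUSG00000018927, 83587882 to 83593087) and Ccl3 (ENSMUSG00000000982, 83647844 to 83649355) on the minus strand and Ccl4 (ENSMUSG00000018930, 83662584 to 83664683) on the plus strand. Ccl24 (ENSMUSG00000004814) spans 135569937 to 135573049 on the minus strand of chromosome 5. All 10 are annotated as protein coding, and no exon of another annotated gene overlaps an exon of any of them.

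The coding sequences around the adjacent cysteine codons are shown for the 4 ligands of the first cluster, because these neighbors did not all change in the same direction. Each is the coding strand in GENCODE M21, 5′ to 3′, with 24 bases on each side of the cysteine codons, which are in capitals.
Ccl2: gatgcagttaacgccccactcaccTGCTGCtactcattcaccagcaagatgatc
Ccl7: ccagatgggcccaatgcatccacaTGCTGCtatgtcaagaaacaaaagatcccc
Ccl12: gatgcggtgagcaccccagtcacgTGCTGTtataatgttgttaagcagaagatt
Ccl8: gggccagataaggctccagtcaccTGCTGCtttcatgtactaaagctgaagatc
The codon of the first cysteine is number 34 in Ccl2, 33 in Ccl7 and Ccl12 and 32 in Ccl8. In pairwise alignments, 66% of the longer coding sequence was identical for Ccl12 and Ccl8, 65% for Ccl7 and Ccl8 and 64.1% for Ccl7 and Ccl12. Ccl2, whose coding sequence is longer (447 bases), shared 48.1% with Ccl7, 49% with Ccl12, 47.9% with Ccl8 and 53% with Ccl24. These are shares of its 447 bases, of which 293, 313, 291 and 352 aligned, so they do not rank its relatives. The highest values of this measure among the 10 were 69.9% for Ccl3 and Ccl4 and 66.1% for Ccl6 and Ccl9. Pairs of unequal length are held down by the measure, so it does not show which ligands are the closest relatives. No stretch of 75 bases in the transcripts of any of the 10 ligands recurred in the transcripts of another annotated gene. At 50 bases, 1.97% of the stretches of Ccl9 recurred in 463 other genes and none of the other 9 ligands had a shared stretch, so reads of the paralogs can be told apart at these lengths.

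Between 29318041 and 46517005 reads were counted on genes per library, and 3 counts correspond to 0.0645 to 0.102 CPM (counts of a gene relative to the total counted on genes in its library). CPM values below are scaled by TMM, and errors are SD over 3 mice. Itgam, which encodes CD11B, ranged from 1737 to 1995 CPM in Cre- controls and from 980.3 to 1366 CPM in PTEC DN RAR mice. Rara, which the transgene derives from, was at 45.5, 35.3 and 45.1 CPM in Cre- controls and at 30.8, 31.5 and 37.6 CPM in PTEC DN RAR mice, with a log2 fold change of -0.33 that did not pass the test (adjusted p = 0.0628). Transgene reads cannot be separated from those of the endogenous gene in these counts, and the transgene is driven in PTECs, so this value does not check the labels. Mitochondrial transcripts took 5.03% to 8.77% of counts in Cre- controls and 10.38% to 12.08% in PTEC DN RAR mice.

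9 of the 10 ligands differed between genotypes. 7 of them fell and 2 rose in PTEC DN RAR mice by edgeR's quasi-likelihood test at an adjusted p under 0.05, and Ccl24 did not pass. Over all 15440 genes tested, 17.1% were called lower and 23.6% higher, or 40.6% in either direction. Their median log2 fold change was -1.18, compared with 0.04 over all genes. The same 7 ligands were lower in every PTEC DN RAR mouse than in every Cre- control and the same 2 were higher in every one, where 24.2% and 29.2% of all genes tested separated in these directions and 53.4% in either. Summed over the 10 ligands, transcripts were at 3448, 3112 and 3802 CPM in Cre- controls and at 1486, 1254 and 1241 CPM in PTEC DN RAR mice, so that the pool was smaller in each PTEC DN RAR mouse.

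**Figure D1:**
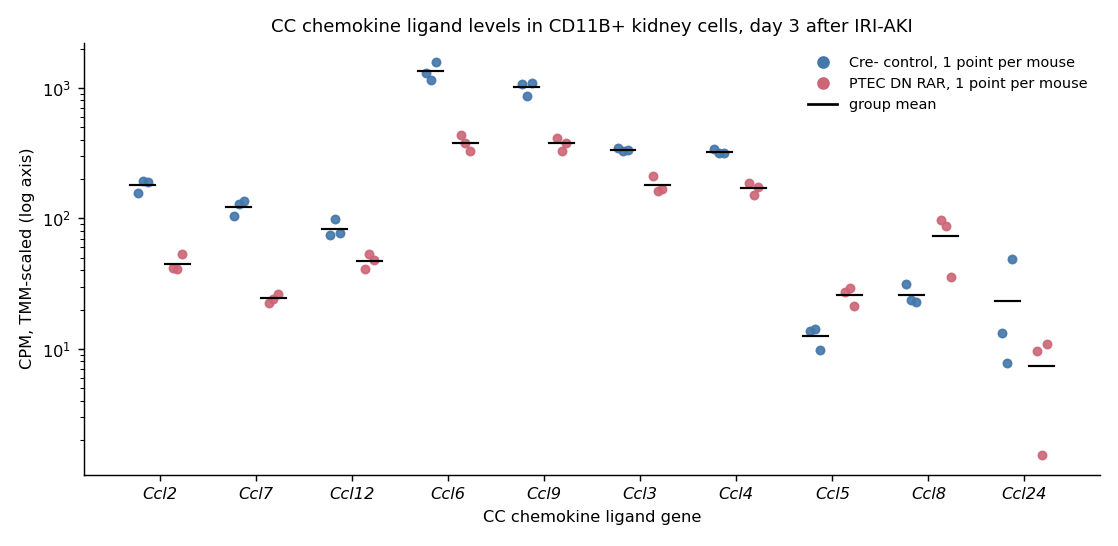
CPM after TMM scaling on a log axis for each of the 10 ligands, with 1 point per mouse and a line at the mean of each genotype. Ccl2, Ccl7, Ccl12, Ccl6, Ccl9, Ccl3 and Ccl4 are lower in all 3 PTEC DN RAR mice, Ccl5 and Ccl8 are higher in all 3, and the genotypes overlap for Ccl24.

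Among the Ccr2 ligands, Ccl7, which encodes MCP-3, had the largest fall of the 10. It was at 103.5, 128.6 and 136.9 CPM in Cre- controls and at 22.5, 24.2 and 26.4 CPM in PTEC DN RAR mice. Every PTEC DN RAR mouse was thus far below the lowest Cre- control. The mean fell from 123 ± 17.4 to 24.4 ± 1.93 CPM (SD, n = 3 each), a 5.05-fold decrease (log2 fold change -2.34, standard error 0.12, edgeR adjusted p = 9.35e-05), and its p value ranked 4 among the 15440 genes. Ccl2, which encodes MCP-1, the main chemoattractant of Ccr2+ monocytes, was at 155.2, 192.4 and 189.6 CPM in Cre- controls and at 41.3, 40.9 and 52.8 CPM in PTEC DN RAR mice. The genotypes did not overlap, and the decrease was 3.98-fold with a 95% interval of the log2 fold change from -2.29 to -1.69.

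Ccl12, which encodes MCP-5, changed less than the other Ccr2 ligands. It was at 73.9, 98.5 and 76.8 CPM in Cre- controls and at 40.8, 53.4 and 48.0 CPM in PTEC DN RAR mice. The genotypes again did not overlap, and the log2 fold change was -0.81 (edgeR adjusted p = 0.00275, standard error 0.14) with a 95% interval from -1.12 to -0.49, which lies apart from the intervals of Ccl2 and Ccl7. Within each library, the log2 ratio of Ccl12 to Ccl2 went from -1.11 ± 0.17 in Cre- controls to 0.08 ± 0.27 in PTEC DN RAR mice, so that Ccl12 counts were 0.405 to 0.512 of those of Ccl2 in Cre- controls and 0.909 to 1.31 of them in PTEC DN RAR mice. The log2 ratio of Ccl7 to Ccl2 moved the other way, from -0.55 ± 0.07 to -0.88 ± 0.12. Neither ratio overlapped between genotypes.

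Together, Ccl2, Ccl7 and Ccl12 were at 332.6, 419.5 and 403.2 CPM in Cre- controls and at 104.6, 118.5 and 127.2 CPM in PTEC DN RAR mice. Markers of infiltrating monocytes were lower in the same libraries. Of 8 such markers, 6 fell and 2 did not pass, with a median log2 fold change of -0.99 over the 8. F13a1 and Fn1 had the largest falls (-2.35 and -1.80) and the highest CPM in Cre- controls, so they weigh heavily in the sum. The sum of the 8 ranged from 2576 to 2913 CPM in Cre- controls and from 876.9 to 936.1 CPM in PTEC DN RAR mice. The difference between mean log2 CPM of the 3 ligands and that of the monocyte markers was -0.56, -0.24 and -0.27 in Cre- controls, against -0.82, -0.87 and -0.95 in the PTEC DN RAR libraries. Averaged over the 3 ligands, the PTEC DN RAR libraries were thus lower by 0.52 log2 units (two-sided exact permutation test, p = 0.1, which is the lowest value possible at this group size). The ligands did not move alike against the markers. Relative to the marker mean, Ccl2 was lower by a log2 difference of -0.81 and Ccl7 by -1.14 without overlap, while Ccl12 differed by 0.38 in the other direction with overlap. Single markers also varied, and F13a1, with a log2 fold change of -2.35, fell as much as Ccl7. The part that monocyte abundance had in the change of each ligand was not tested.

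Ccl6 and Ccl9, the Ccr1 ligands, had the highest CPM of the 10 ligands, and both fell. Ccl6 was at 1304, 1139 and 1568 CPM in Cre- controls and at 437.1, 377.0 and 325.9 CPM in PTEC DN RAR mice. Its decrease was 3.52-fold, or -1.82 on the log2 scale (standard error 0.15, edgeR adjusted p = 0.000201). Ccl9, also known as MIP-1 gamma, was at 1070, 862.5 and 1097 CPM in Cre- controls and at 415.6, 329.0 and 380.8 CPM in PTEC DN RAR mice. No library of either gene crossed into the range of the other genotype, and Ccl9 fell 2.69-fold (log2 fold change -1.43, 95% interval -1.73 to -1.13).

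Ccl3 and Ccl4, which encode MIP-1 alpha and MIP-1 beta and are induced in activated macrophages, fell almost equally. Ccl3 was at 345.7, 327.1 and 336.0 CPM in Cre- controls and at 209.8, 161.4 and 166.8 CPM in PTEC DN RAR mice. Ccl4 was at 337.6, 318.5 and 315.7 CPM in Cre- controls and at 186.0, 150.6 and 173.3 CPM in PTEC DN RAR mice. The spread among Cre- controls was small beside the gap between genotypes for both genes. Their log2 fold changes were -0.91 (standard error 0.11, adjusted p = 0.000712 by edgeR) and -0.93 (standard error 0.10, adjusted p = 0.000386). The log2 ratio of Ccl3 to Ccl4 was 0.05 ± 0.03 in Cre- controls and 0.07 ± 0.12 in PTEC DN RAR mice, and the genotypes overlapped.

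Ccl5, or RANTES, which is made by T cells, NK cells and stimulated macrophages, rose although it shares the receptor Ccr1 with Ccl3. It was at 13.7, 14.1 and 9.79 CPM in Cre- controls and at 27.2, 29.2 and 21.3 CPM in PTEC DN RAR mice. All 3 PTEC DN RAR mice were above all Cre- controls, with a 2.07-fold increase (log2 fold change 1.05, standard error 0.17, adjusted p = 0.00239 by edgeR). The log2 ratio of Ccl5 to Ccl4 was -4.71 ± 0.27 in Cre- controls and -2.72 ± 0.33 in PTEC DN RAR mice. Of 8 NK and T cell markers, 6 were tested and 1 rose, the T cell receptor gene Trac, while Gzma, the most abundant in Cre- controls, did not pass. Trac went from 0.23 ± 0.08 to 1.09 ± 0.45 CPM. The sum of these markers was 3.17 to 8.35 CPM in Cre- controls and 2.90 to 8.79 CPM in PTEC DN RAR mice, with overlap. Among 6 dendritic cell markers, Xcr1 and Clec9a of the cross-presenting subset rose, with log2 fold changes of 2.46 and 1.31. The other 4, Flt3, Cd209a, Zbtb46 and Itgae, did not pass, with log2 fold changes from -0.07 to 0.22, and the sum of the 6 was 62.8 to 96.8 CPM against 88.6 to 118.9 CPM with overlap, while their mean log2 CPM did not overlap. Their part in the rise of Ccl5 was not tested.

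Ccl8, the mouse Ccr8 ligand, rose most of the 10. It was at 31.3, 23.6 and 22.6 CPM in Cre- controls and at 96.3, 86.8 and 35.2 CPM in PTEC DN RAR mice. The genotypes did not overlap, but the third PTEC DN RAR mouse was much closer to the Cre- controls than the other two were. The increase was 2.81-fold (log2 fold change 1.49, standard error 0.33, adjusted p = 0.00789 by edgeR), with a 95% interval from 0.74 to 2.24. Without 1 library at a time, the log2 fold change ranged from 1.23 to 1.78 and stayed past the test. The same PTEC DN RAR mouse was the lowest of its genotype in mean log2 CPM of B cell markers (1.87, 1.75 and 0.04 in the 3 PTEC DN RAR mice), stromal markers (4.05, 4.48 and 3.39) and resident macrophage markers (10.32, 10.34 and 10.00). It was the lowest of its genotype in 6 of 11 marker lists, the others being dendritic cell (3.60, 3.65 and 3.25), NK and T cell (0.27, -0.85 and -1.44) and neutrophil markers (4.27, 4.12 and 3.89). This count did not set it apart, since the third Cre- control was the lowest of its genotype in 7 of the 11 lists. Of 5 B cell markers, 4 were tested and Cd79b alone passed, as higher. Cd79b was at 22.8 to 28.9 CPM in Cre- controls and 31.8 to 43.8 CPM in PTEC DN RAR mice and made up most of the marker sum of 23.5 to 30.9 CPM against 33.1 to 49.3 CPM. The mean log2 CPM of the B cell markers was 0.09, 0.63 and -0.42 in Cre- controls, which overlapped with PTEC DN RAR mice (p = 0.3 by a two-sided exact permutation test). The part of these cell types in the change of Ccl8 was not tested.

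Ccl24 varied more between mice of 1 genotype than between genotypes. It was at 13.2, 7.82 and 48.6 CPM in Cre- controls and at 9.70, 1.53 and 10.8 CPM in PTEC DN RAR mice. The third Cre- control was high and the second PTEC DN RAR mouse low, and the other 4 libraries lay between 7.82 and 13.2 CPM. The log2 fold change of -1.65 had a 95% interval from -3.40 to 0.09 and did not pass the test (adjusted p = 0.116 by edgeR). Markers of eosinophils, which carry its receptor, were low. Siglecf was at 8.79 ± 2.25 CPM in Cre- controls and 7.11 ± 3.92 CPM in PTEC DN RAR mice. Il5ra, the other tested marker, differed in the other direction (log2 fold change 0.68, against -0.31 for Siglecf), and neither passed. The remaining 3 of the 5 listed, Prg2, Epx and Ear6, had too few counts to test. Leaving out the third Cre- control moved the log2 fold change of Ccl24 to -0.56, still short of the threshold, while keeping genes of low counts in the fit gave an adjusted p of 0.0317.

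Expressed per kb of exon, so that genes can be compared, the order of the ligands changed between genotypes. In Cre- controls, Ccl6 led at 745.1 ± 120.6 RPKM, followed by Ccl4 at 490.8 ± 18.1, Ccl3 at 439.0 ± 12.2 and Ccl9 at 331.7 ± 42.2 RPKM, with no overlap between neighbors in this order. Ccl2, Ccl12 and Ccl7 followed at 157.4, 154.7 and 153.5 RPKM, and their ranges over mice overlapped. Ccl8 came next at 50.6 ± 9.30 RPKM, and Ccl24 and Ccl5 were the lowest, at 17.9 and 13.1 RPKM with overlapping ranges. In PTEC DN RAR mice, Ccl4, Ccl3, Ccl6, Ccl8 and Ccl9 ran from 257.5 to 123.2 RPKM, and each overlapped its neighbor in the order. Ccl12 followed at 88.3 ± 11.8 RPKM, clear of Ccl2 at 39.6 ± 5.94 RPKM, which was in turn clear of Ccl7 at 30.4 ± 2.41 RPKM. Ccl7 overlapped Ccl5, at 27.0 ± 4.28 RPKM, and Ccl24 was the lowest at 5.68 ± 3.92 RPKM. The 3 Ccr2 ligands were thus at like levels in Cre- controls and apart in PTEC DN RAR mice.

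The summed RPKM of the 10 ligands was 2530, 2408 and 2724 in Cre- controls, against 1300, 1124 and 1055 in PTEC DN RAR mice. Within this smaller pool, Ccl8 went from 1.99 ± 0.40% to 12.1 ± 4.78% of the summed RPKM and Ccl5 from 0.52 ± 0.12% to 2.33 ± 0.33%. Ccl6 went from 29.1 ± 2.87% to 18.2 ± 0.86%, Ccl2 from 6.18 ± 0.82% to 3.46 ± 0.84% and Ccl7 from 6.02 ± 0.81% to 2.66 ± 0.48%. None of these 5 shares overlapped between genotypes. Ccl3 and Ccl4 held 17.2% and 19.3% of the Cre- control pool and 20.1% and 22.3% of that of PTEC DN RAR mice, although both fell in CPM. The share of Ccl12 was 6.10 ± 1.32% and 7.72 ± 1.64% with overlap. Shares of 1 pool depend on each other, so these values are a description of its composition and were not tested.

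**Figure D2:**
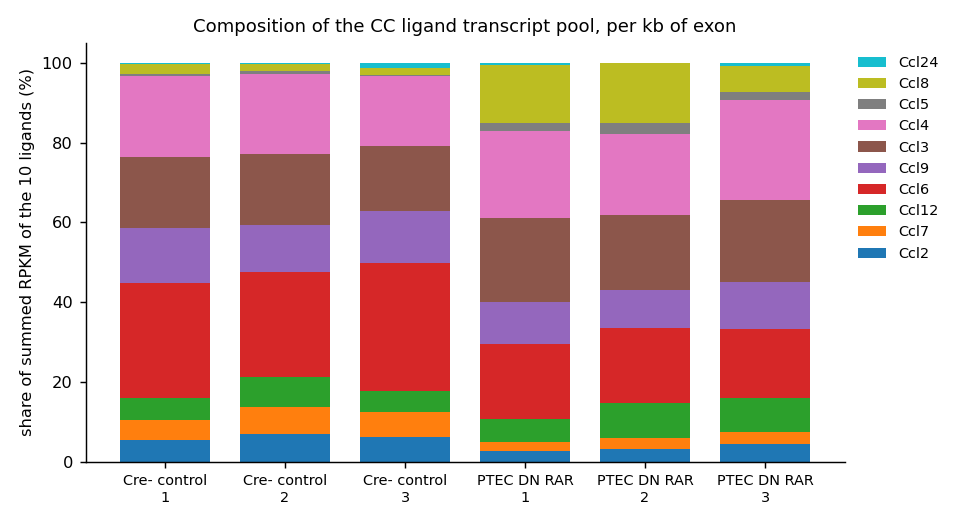
Stacked bars of the share of each ligand in the summed RPKM of the 10 ligands, 1 bar per mouse. The share of Ccl8 is 1.63% to 2.42% in the 3 Cre- controls and 6.54% to 15.1% in the 3 PTEC DN RAR mice, while that of Ccl6 is 26.4% to 32.1% and 17.2% to 18.7%.

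Along chromosome 11, ligands that changed in opposite directions were neighbors in both clusters. In the first cluster, Ccl2, Ccl7 and Ccl12 fell and Ccl8, 11.8 kb beyond Ccl12, rose, so that the log2 ratio of Ccl8 to Ccl12 went from -1.69 ± 0.42 in Cre- controls to 0.50 ± 0.86 in PTEC DN RAR mice without overlap. Ccl11 (eotaxin-1), between Ccl7 and Ccl12, and Ccl1, beyond Ccl8, had too few counts to test. In the second cluster, 1220 kb further on, Ccl5 rose and Ccl9, 42.4 kb away, fell, as did Ccl6, Ccl3 and Ccl4.

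Sequences of 300 bases around the gene start, from 250 bases before it to 50 bases after it, were on hand from RefSeq (GRCm38.p6) for 5 of the 10 ligands (Ccl12, Ccl3, Ccl6, Ccl9 and Ccl8). Those of Ccl12 (chr11:82101595-82101894, plus strand) and Ccl8 (chr11:82114935-82115234, plus strand) are printed because these neighbors changed in opposite directions, and that of Ccl9 (chr11:83578587-83578886, minus strand) because it alone of the 5 held a match to a motif searched, with the matches in capitals. All are on the strand of the gene, 5′ to 3′.
Ccl12: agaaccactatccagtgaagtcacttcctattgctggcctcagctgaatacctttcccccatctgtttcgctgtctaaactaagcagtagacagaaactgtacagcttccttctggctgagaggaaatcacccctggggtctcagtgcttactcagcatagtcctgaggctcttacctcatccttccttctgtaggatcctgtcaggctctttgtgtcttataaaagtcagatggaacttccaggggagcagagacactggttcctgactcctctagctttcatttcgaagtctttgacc
Ccl8: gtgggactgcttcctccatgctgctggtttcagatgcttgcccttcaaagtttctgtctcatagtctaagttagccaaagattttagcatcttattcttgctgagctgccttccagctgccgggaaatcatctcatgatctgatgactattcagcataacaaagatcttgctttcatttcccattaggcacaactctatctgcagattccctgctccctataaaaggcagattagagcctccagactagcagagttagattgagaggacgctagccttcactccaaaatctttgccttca
Ccl9: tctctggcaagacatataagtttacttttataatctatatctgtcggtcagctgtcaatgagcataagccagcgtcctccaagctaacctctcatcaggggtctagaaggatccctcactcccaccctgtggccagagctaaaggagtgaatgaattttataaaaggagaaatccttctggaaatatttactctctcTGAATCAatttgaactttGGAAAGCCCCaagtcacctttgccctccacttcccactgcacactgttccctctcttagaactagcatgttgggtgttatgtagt
Both strands were searched for the NF-kB consensus (present in 4.51% of 32851 promoters of this length), the AP-1 site TGANTCA (7.81%), the gamma-activated sequence TTCNNNGAA (8.3%) and the core of the interferon-stimulated response element, which is GAAA repeated after a gap of 2 bases (3.44%). In Ccl9, the AP-1 match began 53 bases and the NF-kB match 35 bases before the gene start, and the 2 did not overlap. The windows of Ccl12, Ccl8, Ccl3 and Ccl6 held none of these letters, which says nothing of sites outside the windows. No measurement of factor binding belongs to the series.

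Of 13 other CC ligand symbols listed, 12 were found in the table and 5 had enough counts to test. None of the 5 passed by edgeR at an adjusted p under 0.05, and 2 had an unadjusted p under 0.05. DESeq2 called none. Ccl27a was called higher by 4 of the 13 alternative fits that tested it, limma-voom among them. It was also higher in every PTEC DN RAR mouse than in every Cre- control. Ccl28 was called higher without the first PTEC DN RAR mouse only, and Ccl22 lower without the third only. Ccl22 (MDC), a ligand of Ccr4 made by dendritic cells and macrophages, was at 20.5 ± 1.92 CPM in Cre- controls and 19.1 ± 6.28 CPM in PTEC DN RAR mice. Ccl17, the other Ccr4 ligand, was at 7.07 ± 2.43 and 5.33 ± 1.91 CPM, with a 95% interval of the log2 fold change from -1.14 to 0.32. The epithelial chemokines Ccl27a and Ccl28 were at 0.51 ± 0.20 and 0.57 ± 0.15 CPM in Cre- controls and at 1.05 ± 0.20 and 1.23 ± 0.67 CPM in PTEC DN RAR mice, with adjusted p = 0.0522 and 0.0836. Ccl25 did not separate between genotypes, and Ccl21a, Ccl21b and Ccl26 had no count in any library.

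Of 10 CC receptors listed, 6 were tested, 3 of which fell and none of which rose, beside 17.1% of all genes lower and 23.6% higher. Ccr1, the receptor of Ccl3, Ccl5, Ccl6 and Ccl9, was at 270.3, 260.9 and 375.6 CPM in Cre- controls and at 93.1, 59.3 and 78.9 CPM in PTEC DN RAR mice. The genotypes did not overlap, and the decrease was 3.92-fold (log2 fold change -1.97, standard error 0.19, adjusted p = 0.000306 by edgeR). Ccr2, the monocyte receptor of Ccl2, Ccl7 and Ccl12, was at 1292, 1249 and 1334 CPM in Cre- controls and at 786.4, 791.0 and 764.3 CPM in PTEC DN RAR mice, a log2 fold change of -0.73 with a 95% interval from -0.93 to -0.52. This interval lies apart from those of Ccl2 and Ccl7 and overlaps that of Ccl12. Ccr7, which guides dendritic cells to lymph nodes, fell from 31.9 ± 9.39 to 19.1 ± 0.95 CPM (adjusted p = 0.0149), a call that was lost when libraries were scaled on pan-leukocyte genes (adjusted p = 0.0632).

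Ccr3, the Ccl24 receptor, was at 3.06 ± 0.89 CPM in Cre- controls and 1.88 ± 0.38 CPM in PTEC DN RAR mice (adjusted p = 0.0716 by edgeR). Ccr8, the receptor of the ligand that rose most, had 0 counts in all Cre- controls and 4, 0 and 2 counts in PTEC DN RAR mice, which is at the limit of 3 counts that counting error sets. Ccl8 transcripts were therefore measured in a fraction that had next to no transcript of their receptor at this depth.

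**Figure D3:**
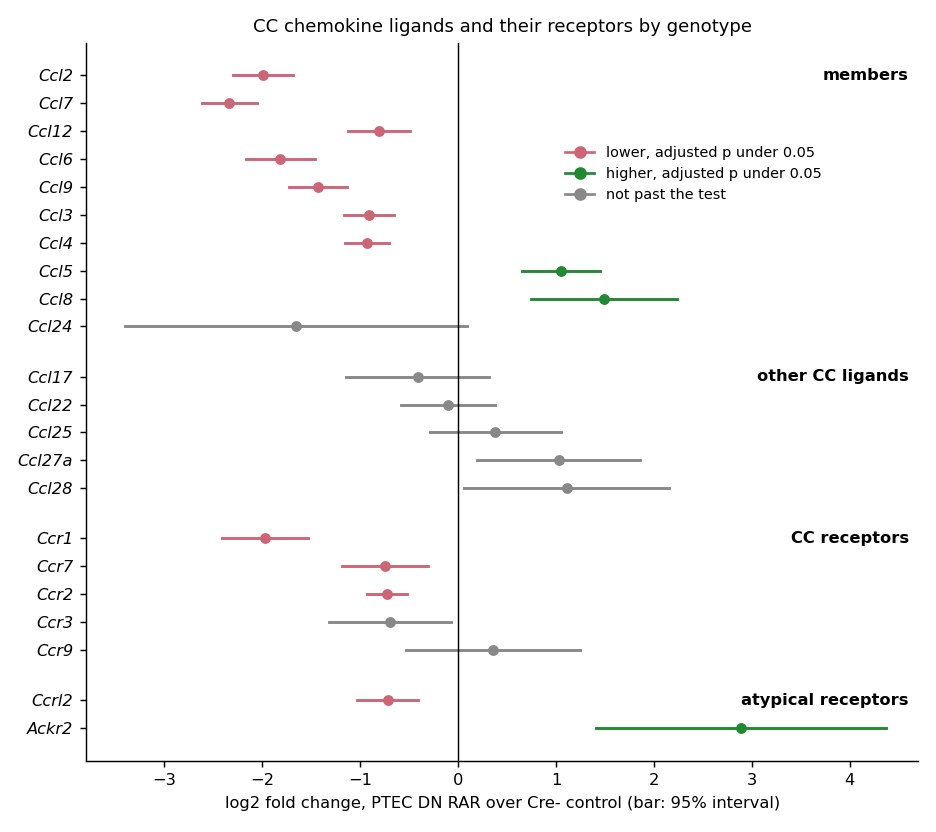
Log2 fold change (PTEC DN RAR over Cre- control) with its 95% interval from edgeR for the 10 ligands, 5 other CC ligands, 5 CC receptors and 2 atypical receptors. Intervals of Ccl2, Ccl7, Ccl6 and Ccr1 lie wholly below -1.4, and those of Ccl5, Ccl8 and Ackr2, the 3 genes that passed the test as higher, lie above 0.

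Atypical receptors bind chemokines without driving migration. Of 4 listed, 2 were tested. Ccrl2, which holds chemerin at the cell surface and is induced in activated macrophages, fell from 380.9 ± 61.7 to 231.4 ± 24.4 CPM (log2 fold change -0.72, adjusted p = 0.00404 by edgeR). Ackr2, a scavenger of inflammatory CC chemokines, had 5, 2 and 0 counts in Cre- controls and 26, 16 and 28 counts in PTEC DN RAR mice, a rise (adjusted p = 0.00868) from a level at or near the floor of 3 counts, so its fitted fold change depends on very few reads.

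Transcription of several inflammatory CC ligands is induced through NF-kB. Of 15 genes listed for receptors and cytokines that activate it, its subunits and its feedback inhibitors, all were tested, 9 fell and none rose, beside 17.1% of all genes lower and 23.6% higher, and the median log2 fold change was -0.28. Tlr4, the lipopolysaccharide receptor, had the largest fall, from 118.9 ± 13.2 to 58.2 ± 8.69 CPM (log2 fold change -1.03, adjusted p = 0.000695 by edgeR). With scaling on pan-leukocyte genes in place of TMM, only Tlr4 and Il1b of this list passed, beside 4.85% of all genes called lower. Without the second PTEC DN RAR mouse 4 of the 15 fell (Il1b, Myd88, Nfkbia and Tlr4), and without any 1 of the other libraries 6 or 7 did. The subunit genes Rela, Nfkb1 and Nfkb2 did not pass, and their fitted changes took either sign across the alternative settings.

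The fraction also held transcripts of cells without CD11B, and their markers moved with genotype. All 14 proximal tubule markers, the most abundant of which was Slc34a1, rose, with a sum of 710.8 to 933.5 CPM in Cre- controls and 2348 to 3583 CPM in PTEC DN RAR mice. Of 8 distal nephron markers, led in level by Umod, 6 rose (1213 to 1706 CPM against 4228 to 8072 CPM), as did 7 of 8 endothelial and podocyte markers, led by Pecam1 (66.7 to 107.9 CPM against 198.2 to 244.6 CPM) and 5 of 7 stromal markers, though not Col3a1, the most abundant in Cre- controls (88.2 to 101.7 CPM against 113.8 to 204 CPM). Of 8 neutrophil markers 7 were tested and 5 fell, among them the most abundant, S100a9 (461.5 to 834.1 CPM against 291.6 to 412.5 CPM). Of 8 resident macrophage markers, Mertk fell, Cd81 rose and the other 6, among them the most abundant, Csf1r, did not pass, and the sum was 13300 to 14560 CPM against 12680 to 16020 CPM with overlap. The part of these cells in the changes of the ligands was not tested. When libraries were instead scaled on 23 leukocyte genes (the tested ones of 24 listed, of which Spi1, Tyrobp and Fcer1g are mainly myeloid), the median over all genes shifted from 0.04 to 0.23 on the log2 scale, and the same directions were found for all 10 ligands, with log2 fold changes of -2.13 for Ccl7, -1.78 for Ccl2, -0.60 for Ccl12, 1.24 for Ccl5 and 1.65 for Ccl8.

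**Figure D4:**
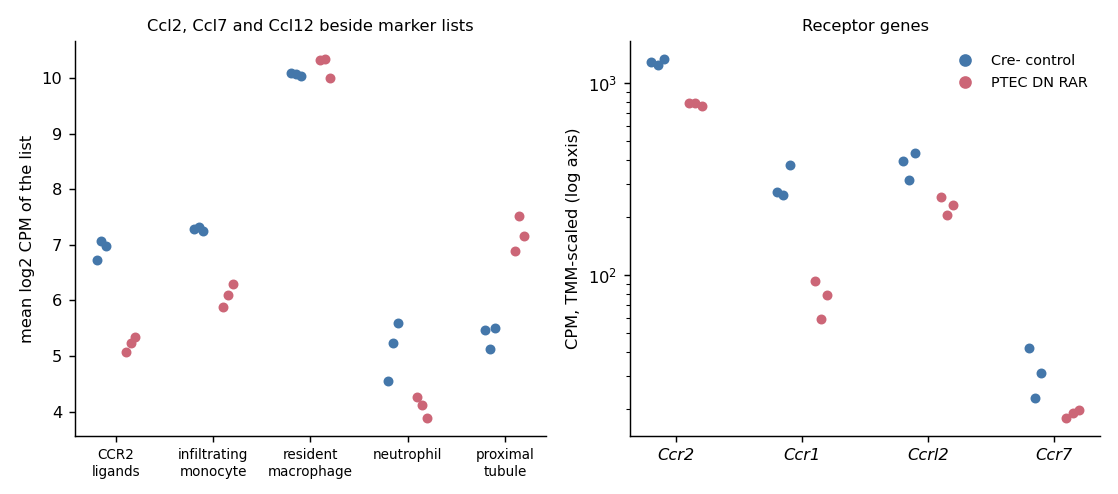
On the left, mean log2 CPM per mouse of the Ccr2 ligands Ccl2, Ccl7 and Ccl12 and of marker lists for infiltrating monocytes, resident macrophages, neutrophils and proximal tubule, and on the right, CPM of receptor genes on a log axis. Ccr2 ligands and monocyte markers are lower and proximal tubule markers higher in all 3 PTEC DN RAR mice, resident macrophage markers overlap, and Ccr2, Ccr1, Ccrl2 and Ccr7 are each lower in all 3 PTEC DN RAR mice.

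Genes with the most similar pattern to each ligand were found by the root mean square difference of log2 CPM, centered on the gene mean, over the 6 libraries and 8982 genes with at least 10 CPM on average. The likeness rests on 6 libraries in 2 groups and carries no test. Ccl2 was closest to Emp1 (difference 0.17) and the C-type lectin gene Clec4d (0.21), and Ccl7 to F13a1 (0.18), which is also a monocyte marker above, and the folate receptor gene Folr2 (0.22). Ccl12 was closest to Slc28a2 and Gm1966 (both 0.09), Ccl3 to Ripk3 (0.06) and Gins2 (0.07), Ccl4 to Dpep2 (0.04) and Pde2a (0.07), Ccl6 to Nxpe5 (0.15) and Hilpda (0.16), and Ccl9 to Dok2 (0.09) and the properdin gene Cfp (0.10). Among the ligands, the nearest pairs were Ccl3 with Ccl4 (0.07), Ccl2 with Ccl7 (0.18) and Ccl6 with Ccl9 (0.24).

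Ligands that rose had other neighbors. Ccl5 was closest to the MHC class II genes Cd74 (difference 0.07) and H2-Aa (0.08), with log2 fold changes of 1.00 and 0.95. Ccl8 was closest to the plasma cell transcripts Igha (0.21), from 63.4 to 175.2 CPM, and Jchain (0.22), from 11.7 to 31.1 CPM. These immunoglobulin-related transcripts shared the low value of the third PTEC DN RAR mouse, a likeness that their choice by pattern favored in advance.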

How the data were processed

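Per the labels, CD11B+ cells were collected on day 3 after bilateral IRI-AKI from 3 PTEC DN RAR and 3 Cre- control mice, and polyA-selected libraries were sequenced, 1 per mouse. The authors deposited raw counts of reads on each Ensembl gene, without normalization, in 1 table. Submitters' processing notes name GRCm38, STAR 2.5.0a, HTSeq 0.6.1, edgeR and limma, with no role or order given, and the read length and annotation release are not given in the sources used here. The counts carry the 5 summary lines of htseq-count, which were left out, and 42.93% to 47.75% of alignments per library were not unique and so were not counted on genes. Of 46612 gene lines, 9 that repeated an identifier with equal counts were dropped. Counts between libraries of 1 genotype differed by a chi-square per degree of freedom of at least 29.6, so each library was taken as a separate sample.

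After filterByExpr and TMM scaling, genotypes were compared with the quasi-likelihood test (glmQLFit, glmQLFTest) of edgeR 4.0.16 under R 4.3.3. P values were adjusted over 15440 genes by the Benjamini-Hochberg method. Intervals of log2 fold changes use the total degrees of freedom of that fit (8.67 for the ligands). These are the residual ones plus the prior ones that edgeR estimates over all genes. Log2 CPM used a prior count of 2, RPKM used the union of exons in GENCODE M21 (GRCm38), and single values per library were compared with two-sided exact permutation tests. Alternatives used DESeq2 1.42.0, limma 3.58.1 (voom), other scalings and filters, the replicate number as a block, and leaving out each library. Tests were tried on simulated data. Coding sequences were compared with Biopython 1.88. The ligands, gene lists and tests were chosen with earlier results of these data known. Genes named are the 10 ligands, listed ligands and receptors of the family, the largest fall of the NF-kB list (none rose), Rara, marker genes by list with the most abundant named, and the 2 genes of most similar pattern per ligand that passed the test. Il1b, Myd88, Nfkbia, Rela, Nfkb1 and Nfkb2 and the markers named for passing or missing the test are outside this rule and were chosen after their values were seen. Counting intervals and floors cover counting error only, since PCR copies could not be told from separate molecules. Protein sequences were not analysed here. The values of 1 listed receptor and 1 listed marker are not reported here.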

Additional observations from a re-analysis of the deposited data

How the results depend on the processing

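Each of the 14 alternative fits gave the 10 ligands the same direction as the reported one, with 7 or 8 called lower and 2 called higher. Over all of them the log2 fold change ranged from -2.45 to -2.13 for Ccl7, -2.17 to -1.78 for Ccl2, -0.91 to -0.60 for Ccl12, 0.85 to 1.24 for Ccl5 and 1.23 to 1.78 for Ccl8. Ccl24, the 1 ligand whose call depended on the processing, passed without a filter on low counts (log2 fold change -1.68, adjusted p = 0.0317 by edgeR) and in the block fit below, and ranged from -2.11 to -0.56 when libraries were left out in turn. Of 28 other tested genes (ligands, receptors and NF-kB genes), 13 fell and 1 rose as reported. Scaling on pan-leukocyte genes gave 5 lower and 2 higher, limma-voom and library size each gave 2 higher, a minimum of 10 counts gave 0 higher by edgeR because Ackr2 was no longer tested, and leaving out libraries gave 8 to 12 lower and 1 to 2 higher, the 8 without the second PTEC DN RAR mouse. For the other changes the cause was not tested. Pan-leukocyte scaling also changed the calls over all genes from 2636 lower and 3640 higher to 749 and 4703, and lower genes from 42.0% to 13.7% of calls. Without 1 library at a time, 1874 to 2824 genes were called lower and 2433 to 3699 higher. Scores of eosinophil markers (difference 0.08) and NK and T cell markers (0.08) changed sign among these settings, from -0.13 to 0.21 and from -0.39 to 0.47. With 3 mice against 2, exact permutation tests cannot go below p = 0.2.

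The replicate numbers were taken as names only, since deviations of same-numbered libraries from their genotype means correlated at -0.01, 0.21 and 0.03 and not every library correlated best with its own number. With the replicate number as a block, 2606 genes were called lower and 3612 higher, 8 ligands were lower and 2 higher, and Ccl24 passed (log2 fold change -1.61, adjusted p = 0.0198 by edgeR). For single values per library, the exact permutation test by sign flips within numbers cannot go below p = 0.25.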
